A study of Sus scrofa with 4 samples.

Results

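The APLN and ESM1 endothelial cells of pig meniscus are 72 of the 27782 cell barcodes in this study, and 72 of its 2097 vascular endothelial barcodes. They were chosen from their own counts of unique molecular identifiers (UMIs, 1 for each captured transcript). A barcode with at least 200 detected genes counted as vascular endothelial when PECAM1, PLVAP, VWF, ADGRL4 and CLEC14A together gave at least 3 UMIs. It had to have at most 1 UMI of the lymphatic genes MMRN1 and PROX1, at most 2 of the mural genes ACTA2, MYH11 and RGS5, at most 2 of the macrophage genes C1QA, C1QB and C1QC, and under 0.5% of its UMIs from the cartilage collagen COL2A1. Those with at least 1 UMI of APLN or ESM1 are the 72 cells described here, and the other 2025 vascular endothelial barcodes are called the other endothelial cells. The values of these 16 genes chose the cells, so they are given as descriptions and carry no test.

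The study took lateral and medial menisci of pigs (Sus scrofa, tissue freed of synovium), separated the red zone from the white zone, digested the pieces with pronase and collagenase, and made 10x Genomics 3′ single-cell libraries. There are 4 libraries, 1 for each combination of meniscus and zone, and no treatment, genotype or age is named. Values for the 4 libraries are always given in the order lateral red, medial red, lateral white and medial white. The labels name no animals, so p-values measure only the spread between these libraries, which may be technical.

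The meniscus is a fibrocartilage pad of the knee. Its outer, red zone carries blood vessels, and its inner, white zone is mostly without them. New vessels grow from existing ones as sprouts, each led by a tip cell that responds to VEGF and sends a Notch signal, through DLL4, to the stalk cells behind it. APLN encodes apelin, the secreted peptide that binds the receptor APLNR, and ESM1 encodes endocan, a secreted proteoglycan. Both are widely used markers of tip cells. By the RefSeq annotation of Sscrofa11.1, the build of the files, APLN (ENSSSCG00000048443) lies on chromosome X from 106236746 to 106246563 and ESM1 (ENSSSCG00000016900) on chromosome 16 from 34184255 to 34193877.

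The libraries held 5753, 6840, 7382 and 7807 barcodes and 9666319, 11878284, 13719381 and 14902274 UMIs. The 72 cells held 166043 UMIs in sum, 19419, 16072, 37320 and 93232 by library, against 3361742 in the other endothelial cells. Pairs of libraries shared 10 to 20 barcode sequences, and 0 of these belonged to the 72 cells. The doublet caller Scrublet marked 2 of all barcodes and thus did not work here. As an alternative, 1563 barcodes were removed by their doublet scores, 7 of the 72 cells among them.

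The cells numbered 10, 6, 23 and 33. They made up 1.22% of the vascular endothelial barcodes in the lateral red library (10 of 817, exact Clopper-Pearson 95% interval 0.588 to 2.24%) and 0.677% in the medial red library (6 of 886, 0.249 to 1.47%). In the white zone they made up 15.5% in the lateral library (23 of 148, 10.1 to 22.4%) and 13.4% in the medial library (33 of 246, 9.42 to 18.3%). Both white zone libraries lay above both red zone libraries, and their intervals did not overlap those of the red zone. The intervals cover counting error only. With 2 libraries against 2, an exact permutation test cannot go below p = 0.33, so the zones were not tested on this share.

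The white zone held far fewer endothelial cells altogether, so the difference was smaller as a share of all barcodes, at 0.174, 0.0877, 0.312 and 0.423%. Among the rule's cells the median UMIs per barcode were 1545, 2462, 1540 and 2315, against 1171, 1459, 947 and 1183 in the other endothelial cells. The deeper a barcode, the more likely it shows a rare transcript, so each barcode was also thinned to 1000 UMIs and shallower ones were left out. The shares were then 1.54% (7 of 454), 0.530% (3 of 566), 19.7% (12 of 61) and 8.21% (11 of 134). Thinning left out 1, 0, 5 and 4 of the cells and 286, 207, 73 and 88 of the other endothelial cells. With at least 2 UMIs of APLN and ESM1 in place of 1, the cells numbered 2, 2, 12 and 15, or 0.245, 0.226, 8.11 and 6.098% of the endothelial barcodes. The white zone shares stayed above those of the red zone under all 3 counts.

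**Figure D1:**
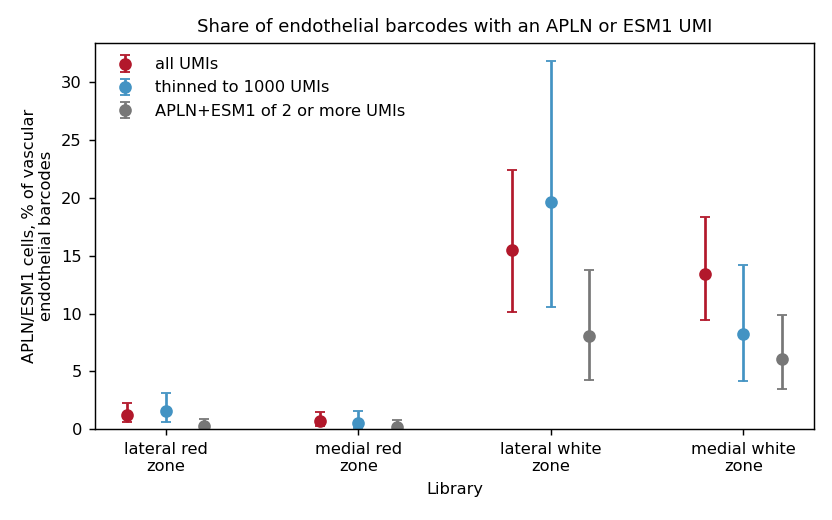
Share of vascular endothelial barcodes (vertical axis, %) that met the APLN and ESM1 rule in each of the 4 libraries (horizontal axis), with all UMIs, after thinning to 1000 UMIs, and with at least 2 APLN and ESM1 UMIs. Points are shares and bars are exact 95% intervals, and the white zone libraries (15.5 and 13.4% with all UMIs) lie above the red zone libraries (1.22 and 0.677%).

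Free RNA in a droplet suspension gives stray UMIs, so both genes were also counted in barcodes without endothelial UMIs. The comparison class had 0 endothelial UMIs and was not high in COL2A1, mural or C1Q genes. Whether cells of this class express the genes themselves was not tested. In the lateral white library, 17 of its 4869 barcodes held 34 ESM1 UMIs. APLN was detected in 0.419, 0.102, 0.596 and 0.368% of these barcodes and in 0.122, 0.226, 10.8 and 6.50% of the endothelial ones. ESM1 was detected in 0.258, 0.382, 0.349 and 0.0580% of them and in 1.10, 0.564, 7.43 and 8.13% of the endothelial ones. Median UMIs per barcode in the comparison class were above those of the endothelial barcodes, at 1579, 1479, 1407 and 1611.5 against 1173, 1467, 989 and 1310.5. In the white zone both genes thus stood above the level in the comparison class. After thinning to 1000 UMIs, APLN in the medial white library was found in 2.24% of endothelial barcodes (3 of 134, 0.464 to 6.403%) against 0.216% of the comparison class (0.104 to 0.396%).

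The red zone was less clear. APLN in endothelial barcodes of the lateral red library was at or below that level, and both genes of the medial red library had intervals that overlapped it. APLN in both red zone libraries and ESM1 in the medial red library can therefore not be told apart from the level of the comparison class. Whether that level comes from stray UMIs was not tested. The overlap touches every zone comparison below. In the medial red library ESM1 was in 5 of 886 endothelial barcodes (0.183 to 1.31%). It was in 0 of 759 barcodes with mural genes (0 to 0.485%) and 0 of 473 with C1Q genes (0 to 0.777%), intervals that overlapped too. By count, 1 medial red cell had 5 ESM1 UMIs and 1 APLN UMI, and another had 3 ESM1 UMIs. ESM1 in the lateral red library stood higher, with an endothelial share of 1.10% (0.505 to 2.08%) against 0.258% (0.111 to 0.507%), and these intervals just met. APLN outside the endothelium was not nil in cartilage cells either, with 0.613 and 0.874% of COL2A1-high barcodes in the lateral and medial white libraries.

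**Figure D2:**
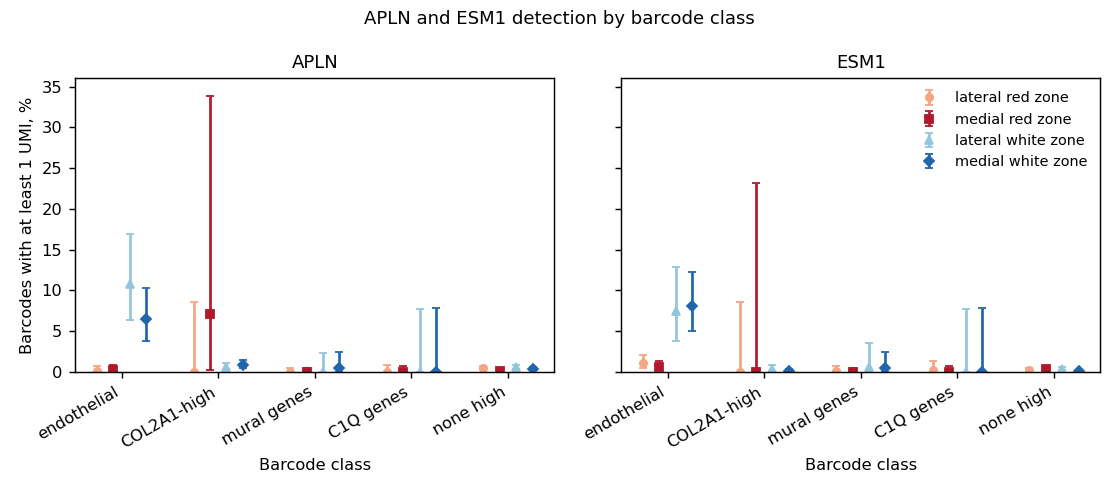
Share of barcodes with at least 1 UMI (vertical axis, %) of APLN (left) and ESM1 (right) in 5 barcode classes (horizontal axis) of each library, with exact 95% intervals. The endothelial barcodes of the white zone stand at 6.50 to 10.8% for APLN and 7.43 to 8.13% for ESM1, while those of the red zone lie at 1.10% or less, and the wide bars belong to classes with few barcodes.

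The balance of the pair of genes differed between the zones. Cells with APLN and no ESM1 numbered 1, 1, 12 and 13, cells with ESM1 and no APLN 9, 4, 7 and 17, and cells with both 0, 1, 4 and 3. The red zone cells were thus nearly all ESM1 cells, while 32 of the 56 white zone cells had APLN. In the white zone ESM1 was found in 7 of 32 endothelial barcodes with APLN (21.9%) and in 24 of 362 without it (6.63%). In the lateral library these were 4 of 16 (25.0%, 7.27 to 52.4%) and 7 of 132 (5.30%, 2.16 to 10.6%). In the medial library they were 3 of 16 (18.8%, 4.05 to 45.6%) and 17 of 230 (7.39%, 4.36 to 11.6%). The intervals overlapped in each library. The barcodes with APLN were deeper, with median UMIs of 1538 against 954.5 in the lateral and 2809.5 against 1258.5 in the medial white library, and the part of depth in this difference was not tested. Of all UMIs of each gene in a library, the rule's cells held 2 of 16, 2 of 7, 25 of 73 and 23 of 68 for APLN and 11 of 28, 11 of 36, 18 of 68 and 41 of 50 for ESM1. Most APLN UMIs therefore lay outside these cells in every library, and so did most ESM1 UMIs except in the medial white library.

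Most of the cells were at the edge of the rule. Of the 72, 41 had a single APLN or ESM1 UMI and 31 had 2 or more. The highest counts were 4 APLN UMIs in a cell, seen in both white zone libraries, and 10 ESM1 UMIs in a medial white cell. At the endothelial threshold of 3 UMIs there were 2 cells, and 4 barcodes with APLN or ESM1 missed it with 2 UMIs. The limits on other cell types removed 12 of 84 candidates, 10 by the mural genes, 1 by the C1Q genes and 1 by COL2A1.

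**Figure D3:**
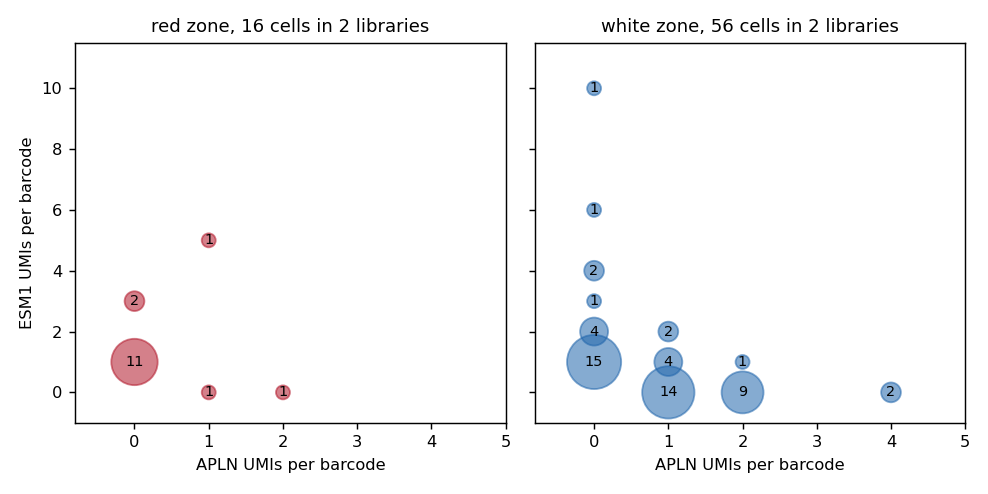
APLN UMIs (horizontal axis) and ESM1 UMIs (vertical axis) in each of the 72 cells, red zone left and white zone right, where the number in a circle and its area give the cells with that pair of counts. In the red zone 11 of 16 cells have a single ESM1 UMI and no APLN, while the white zone cells spread along both axes.

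The markers given with the label were present. PECAM1, an adhesion molecule of endothelial junctions, stood at 3038, 1618, 3966 and 3668 CPM (UMIs summed over the cells of a library and scaled to an equal total) in the cells and at 2514, 2156, 3168 and 3627 in the other endothelial cells. PLVAP, which builds the diaphragms of fenestrated endothelium, stood at 515, 996, 1688 and 1813 CPM against 793, 876, 1186 and 1676. VWF, the clotting factor carrier of endothelial granules, stood at 257, 311, 268 and 139 CPM against 486, 507, 307 and 163. All 3 genes took part in the rule. CDH5, the cadherin of endothelial junctions that the rule did not use, was present in every library at 360, 311, 295 and 386 CPM against 217, 144, 169 and 204, a difference that was not called (adjusted p = 0.205).

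Markers of other cell types were low, with the exception of matrix genes. The rule itself limited 3 genes of the myeloid list (C1QA, C1QB and C1QC), 3 of the mural list (ACTA2, MYH11 and RGS5), 2 of the lymphatic list (MMRN1 and PROX1) and COL2A1 of the chondrocyte list, so the choice of cells set part of these low sums. All 8 T or NK cell genes were at 0 in the 72 cells, and 11 of 12 myeloid genes were at 0 in each library (sum 103 to 365 CPM, all of it CTSS). The mural list, 12 genes with 6 to 10 of them at 0, summed to 309, 684, 107 and 150 CPM. The lymphatic list of 8 genes summed to 0, 124, 0 and 10.7 CPM. The fibroblast list of 9 genes, with collagens I and III, had 4, 1, 3 and 1 genes at 0 and summed to 824, 28808, 4555 and 12624 CPM, against 8518, 15598, 7698 and 23611 in the other endothelial cells. The chondrocyte list of 12 genes summed to 0, 498, 1501 and 2403 CPM, with 12, 9, 4 and 4 genes at 0. The medial red cells thus stand apart by their fibroblast transcripts, and this sum rests on 6 barcodes.

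For the comparison with the other endothelial cells, UMIs were summed per library and class, and genes outside the rule were tested with edgeR's quasi-likelihood test with the library as a block. Fold changes are log2 of the cells over the other endothelial cells, with a standard error (SE) over 4 libraries, and a gene is called at a Benjamini-Hochberg adjusted p below 0.05. Of 2030 genes tested, 25 were called (1.23%), 9 higher (0.443%) and 16 lower (0.788%), and 227 had an unadjusted p below 0.05 (11.2%). DESeq2 called 47 (2.32%). With library totals in place of TMM scaling, 14 of 23 calls were higher and 9 lower. The genes that rose included CXCL12, CLDN5 and CRYAB, and those that fell included DNASE1L3, NUPR1, FABP4 and FABP5. The calls rested most on both white zone libraries, and many of them on the medial red library too. There were 4 calls without the lateral white library and 1 without the medial white one, against 34 and 17 without the lateral and the medial red library. Here and below, the filter on low counts was run anew in each alternative. The number of genes tested therefore differed, and such counts are not comparable as shares. Of the 19 called genes that met the naming rule, 17 lost their call without the lateral white library, and 17 of the 18 with a value lost it without the medial white one. Without the lateral red library 4 of the 19 lost their call, and without the medial red library, with its few cells, 11 did.

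CXCL12, a chemokine that arterial endothelium is known to secrete, had 824, 560, 214 and 397 CPM in the cells and 153, 142, 169 and 44.1 CPM in the other endothelial cells. The cells were higher in all 4 libraries, with a log2 fold change of 2.02 ± 0.35 (SE, adjusted p = 0.00437). A CXCL12 UMI was found in 9 of 16 red zone and 14 of 56 white zone cells, and 22.9% of the cells' CXCL12 UMIs came from 1 medial white barcode. The gene lies on chromosome 14 from 91516383 to 91543857. It was the 1 arterial gene called of 2 tested from a list of 10. The other tested one, the transcription factor SOX17, had 412, 249, 134 and 85.8 CPM against 194, 162, 113 and 41.3 (log2 0.71, adjusted p = 0.473). Without the medial white library CXCL12 was not called (log2 1.64, adjusted p = 0.247), nor with at least 2 APLN and ESM1 UMIs per cell (log2 1.15, adjusted p = 0.378).

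CLDN5, the claudin of endothelial tight junctions, had 824, 249, 268 and 215 CPM against 127, 166, 81.6 and 90.9. The lateral red cells were the highest, and the change was 1.58 ± 0.34 (adjusted p = 0.0237), a call lost without the lateral red (adjusted p = 0.109), lateral white (0.384) or medial white library (0.237). It was 1 of 15 tested endothelial junction and surface genes to be called, from 18 in the list, and 10 of the 15 had a positive sign with a median of 0.14 against -0.02 over all tested genes.

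THBS1, a matrix protein that restrains vessel growth, had 566, 498, 857 and 880 CPM against 323, 276, 671 and 422 without a call (log2 0.69, adjusted p = 0.205).

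Other genes that rose were CRYAB, a small heat-shock chaperone (log2 1.38), the adhesion receptor gene ADGRF4 (1.20), APOA1, the main protein of high-density lipoprotein (0.96), ISG12(A), an interferon-stimulated gene (0.64), S100A6 (0.59) and S100A4 (0.97), both calcium-binding proteins. ADGRF4 had 618, 311, 563 and 719 CPM against 120, 84.0, 326 and 400. S100A4 was lower in the medial red cells, at 124 against 181 CPM, and higher in the other 3 libraries. CRYAB, ADGRF4 and S100A6 each lost their call in 8 or 9 of the alternatives that gave them a value.

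The fatty acid carriers FABP5 and FABP4 were lower. FABP5 had 360, 2800, 482 and 290 CPM in the cells and 4055, 5020, 1606 and 747 CPM in the other endothelial cells, with a change of -1.76 ± 0.24 (adjusted p = 0.000363). The cells were lower in all 4 libraries, and the call held in 10 of 13 alternatives. FABP4, the carrier that marks capillaries of fat and muscle, had 103, 1058, 0 and 0 CPM against 959, 1924, 119 and 19.3 (log2 -1.87 ± 0.41, adjusted p = 0.0251), and 14 of its 19 UMIs came from 1 medial red barcode. Of 13 genes in the capillary list 5 were tested, these 2 were called and 2 of the 5 had a positive sign. Against other endothelial cells of matched total UMIs, 3 genes of the list could be tested and 0 were called by edgeR, with a median log2 of 0.012. The water channel AQP1 was tested too, at 1648, 809, 2197 and 3314 CPM against 1331, 1080, 1700 and 2814 (log2 0.10, adjusted p = 0.887). CD36, the fatty acid translocase, had 0 UMIs in all 72 cells. In the other endothelial cells it had 129 and 157 CPM in the red zone and 0 in both white zone libraries.

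Genes of venules had lower values, without a call among those tested. All 5 tested of the list of 12 were negative, with a median of -1.04, and 0 were called by edgeR. VCAM1, an adhesion molecule for leukocytes, had 103, 0, 107 and 161 CPM against 450, 238, 238 and 295 (log2 -1.41 ± 0.38, adjusted p = 0.0812). NR2F2, the transcription factor of vein identity, had 51.5, 249, 26.8 and 64.4 CPM against 247, 268, 87.8 and 218 (log2 -1.46 ± 0.43, adjusted p = 0.103). Both were lower in all 4 libraries. ACKR1, the chemokine receptor of venules, did not pass the filter on low counts, with 1 UMI in all 72 cells against 419, 546, 31.4 and 35.8 CPM in the other endothelial cells. It was called lower when that filter was left out (adjusted p = 1.94e-05), as was VCAM1 (adjusted p = 0.0154). In that fit the median over all genes was -0.58, and 50 of 53 calls were lower. Among the other endothelial cells, 277, 384, 4 and 8 barcodes had an ACKR1 UMI and 323, 559, 7 and 7 had FABP4 or CD36, so venular and capillary transcripts lay mainly in the red zone.

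Further genes that fell were DNASE1L3, a secreted nuclease (log2 -2.70 ± 0.52, adjusted p = 0.0101), with 0, 0, 0 and 64.4 CPM against 81.8, 85.8, 163 and 298. NUPR1, a stress-induced nuclear protein, had 0, 62.2, 26.8 and 96.5 CPM against 245, 244, 220 and 378 (log2 -2.37 ± 0.43, adjusted p = 0.00635). SOD2, the mitochondrial superoxide dismutase, had 463, 249, 80.4 and 215 CPM against 653, 694, 891 and 427 (log2 -1.50 ± 0.34, adjusted p = 0.0259) and was the 1 inflammatory gene called of 7 tested. CCL4, a chemokine, fell by 1.92 on the log2 scale. The feature named HPS5 fell by 1.76 on that scale, and 39.9% of its UMIs in the cells came from 1 barcode. In the RefSeq annotation HPS5 (chromosome 2, 40906785 to 40938847) has the serum amyloid A genes as neighbours, and how the counting divided reads between them was not tested.

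COL1A2, a chain of collagen I, was also called lower (log2 -1.13, adjusted p = 0.0321), with 257, 6720, 750 and 2070 CPM against 3317, 5957, 1499 and 4592. The medial red cells went the other way. All 6 tested fibroblast genes had a negative sign with a median of -0.79. The cells were deeper than the other endothelial cells and their fibroblast sums were lower in 3 of 4 libraries, and the part of free RNA in these genes was not tested. Of 56 tested ribosomal protein genes, a group put together after the values were seen, 55 had a negative sign and 6 were called lower (median -0.34), among them RPLP0 (-0.50), RPS12 (-0.49) and RPL10 (-0.42). TPT1, a translationally controlled protein, fell by 0.40. Of the ribosomal genes 0 were called with library totals in place of TMM scaling (edgeR), 0 in the white zone libraries alone and 17 by DESeq2.

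**Figure D4:**
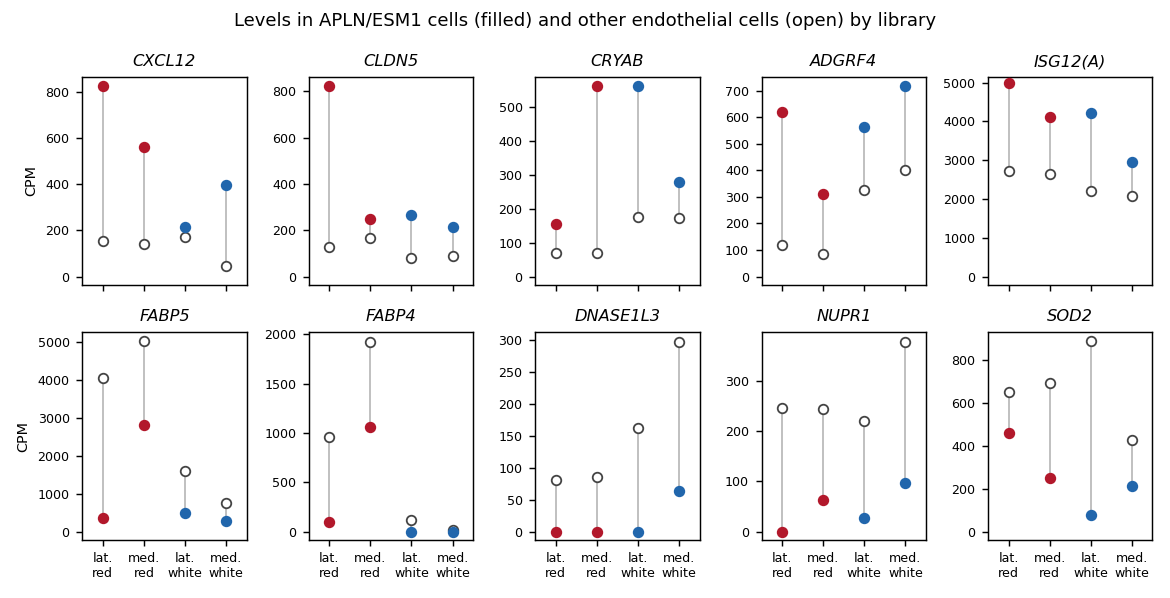
CPM (vertical axis, a separate linear scale for each gene) of 5 genes called higher (top) and 5 called lower (bottom) in the APLN and ESM1 cells (filled) and the other endothelial cells (open) of each library (horizontal axis). The cells lie above the others in every library for the top row and below in every library for the bottom row, a direction that the naming rule asked for.

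The cells were also set beside as many other endothelial cells of matched total UMIs (10, 6, 23 and 33 barcodes). CXCL12 had 103, 249, 134 and 66.5 CPM in the matched cells and CLDN5 had 0, 0, 80.2 and 111, each below the rule's cells in every library. These matched values rest on few UMIs, 2, 4, 5 and 6 for CXCL12 and 0, 0, 3 and 10 for CLDN5. FABP5 had 4067, 2489, 1363 and 566, so the medial red cells, at 2800, were not lower. Only 391 genes could be tested against the matched cells and 7 were called, APOA1 higher and COL1A2 and RPS2 lower among them. Of the 19 called genes that met the naming rule, 11 had a value there, and 10 of these lost their call.

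Genes of tip cells did not pass the test. From the list of 23 genes, 21 are named in the files and 8 could be tested, and 0 were called by edgeR. Of the 8, 5 had a positive sign, with a median of 0.36 against -0.02 over all tested genes. The summed level of the 21 genes was 3296, 2240, 2546 and 2746 CPM in the cells against 2477, 2243, 1876 and 2023 in the other endothelial cells. FLT1, a VEGF receptor, had 206, 124, 402 and 311 CPM against 165, 130, 207 and 154 (log2 0.69 ± 0.30, adjusted p = 0.381), higher in 3 of 4 libraries. KDR, the main signalling receptor of VEGF, had 257, 62.2, 188 and 118 CPM against 91.3, 100, 81.6 and 79.9 (log2 0.73 ± 0.39, adjusted p = 0.516). MCAM, an adhesion molecule, had 309, 0, 80.4 and 204 CPM against 43.9, 32.8, 31.4 and 96.5 (log2 1.32 ± 0.42, adjusted p = 0.136). For all 3 the medial red cells were the exception.

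DLL4, the Notch ligand of tip cells, was too low to be tested, with 51.5, 0, 134 and 193 CPM against 33.6, 31.0, 56.5 and 68.9. In the white zone 17 of 56 cells (30.4%, 18.8 to 44.1%) and 34 of 338 other endothelial cells (10.1%, 7.07 to 13.8%) had a DLL4 UMI, and the cells were the deeper barcodes. These counts pool the lateral and medial libraries, and their intervals cover counting error only. FLT1 was found in 25 of 56 (44.6%) and 66 of 338 (19.5%). ANGPT2, the antagonist of the receptor TEK, had 5 UMIs in all 72 cells, and APLNR, the receptor of apelin, 3. CXCR4, the receptor of CXCL12, had 10 UMIs in the lateral red cells, 9 of them in 1 barcode. NRP2, a VEGF co-receptor, had 0, 0, 134 and 64.4 CPM against 67.2, 77.5, 132 and 74.4. NRP1 had 360, 62.2, 214 and 150 CPM in the cells. The other endothelial cells of matched total UMIs had 103, 124, 187 and 99.8 CPM of NRP1, from 2, 2, 7 and 9 UMIs. The cells were thus higher in 3 libraries and lower in 1. The label's word sprouting therefore rests on APLN and ESM1, which chose the cells, and the other tip cell genes showed no called difference with all libraries.

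The white zone libraries alone were an alternative chosen after the data were seen, with 1 residual degree of freedom. There, 42 of 2317 genes were called (1.81%), 10 of them among the 25 above. They included PDGFB, the growth factor by which tip cells recruit mural cells, with 188 CPM in the lateral and 85.8 CPM in the medial library's cells against 18.8 and 33.1 (log2 1.92 ± 0.54, adjusted p = 0.0334). It was the 1 tip cell gene called of 12 tested there. PDGFB rests on 7 and 8 UMIs. TEK, the angiopoietin receptor, was called lower, with 26.8 and 64.4 CPM against 188 and 198 (log2 -1.96 ± 0.55, adjusted p = 0.0279). COL4A1, a chain of basement membrane collagen, was called higher there (log2 0.81, adjusted p = 0.0431), while SPARC, a matrix-binding protein of the same list, was called lower (log2 -0.71, adjusted p = 0.0458), the 2 calls among 11 tested basement membrane genes. Also called higher were the connexin GJA1 (0.88), the immediate-early gene FOS (0.77) and the interferon genes RSAD2 (0.73) and CXCL10 (0.74). A single lateral white barcode held much of the CXCL10 count, as given below. MGP (-1.74), COL1A1 (-1.71) and DCN (-0.996), genes of matrix cells, were called lower.

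**Figure D5:**
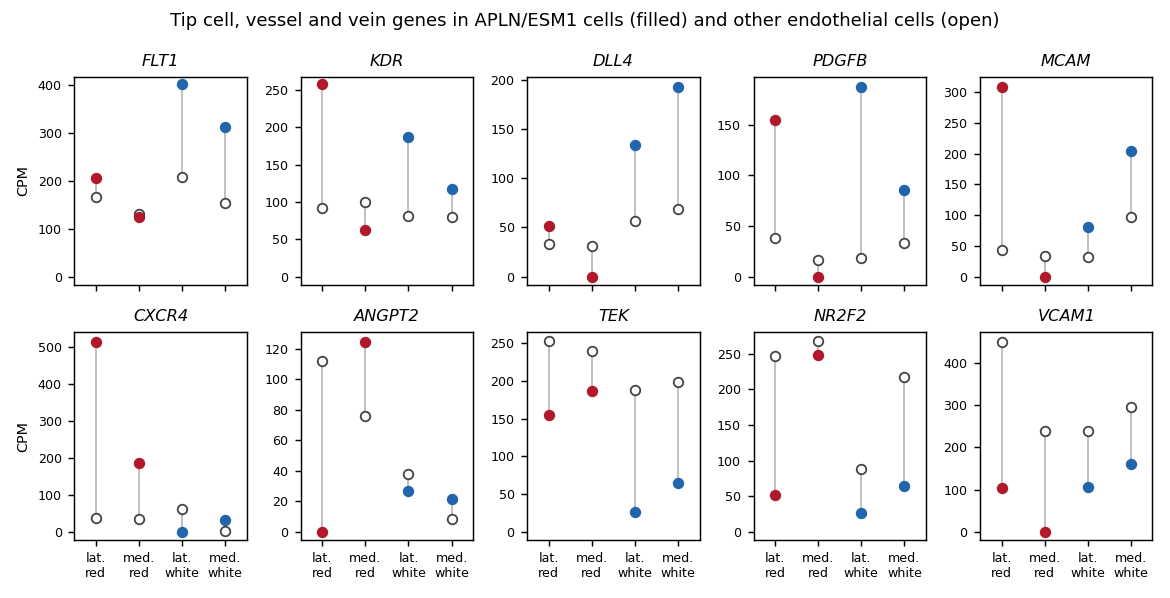
CPM (vertical axis, a separate linear scale for each gene) of tip cell, vessel and vein genes in the APLN and ESM1 cells (filled) and the other endothelial cells (open) of each library (horizontal axis). In both white zone libraries the cells lie above the others for FLT1, KDR, DLL4, PDGFB and MCAM and below for TEK, NR2F2 and VCAM1. Of those genes that could be tested with all 4 libraries 0 were called, and not all could be, DLL4 being too low.

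The remaining lists gave few calls with all libraries. Of 11 tested basement membrane genes 9 had a positive sign (median 0.35) and 0 were called, with COL4A1 at 206, 1182, 750 and 826 CPM against 295, 289, 339 and 488 (log2 0.91, adjusted p = 0.131). Of 14 tested interferon genes 13 had a positive sign (median 0.37) and ISG12(A) was called, at 4995, 4107, 4207 and 2950 CPM against 2722, 2632, 2215 and 2081. IFI6, another gene of this list, had 8239, 9084, 8574 and 8667 CPM against 6526, 7120, 6757 and 7168, higher in all 4 libraries without a call (adjusted p = 0.312). Of the VEGF and angiopoietin system 0 of 7 tested genes were called, of Notch 0 of 4, of integrins 0 of 5, of the BMP and TGF-beta system 0 of 8, of guidance genes 0 of 2, of endothelial transcription factors 0 of 15 and of the MHC class II genes 0 of 4. Of hypoxia and glycolysis 0 of 11 tested genes were called (median 0.05), of immediate-early and heat-shock genes 0 of 15 and of the cell cycle 0 of 3. TOP2A, an enzyme of dividing cells, had 0 UMIs in the 72 cells. In the mural, chondrocyte, myeloid, Schwann, plasma cell and mast cell lists 1 gene each could be tested and 0 were called, and no T or NK cell or lymphatic gene could be tested.

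APLN cells and ESM1 cells could be set side by side in the white zone, without a test, since only the medial white library had at least 10 of each. In that library the 13 cells with APLN alone and the 17 with ESM1 alone had 125 and 697 CPM of CXCL12, and in the lateral white library the 12 and 7 cells had 0 and 454 CPM. CXCL10, an interferon-induced chemokine, went the other way, with 999 against 196 and 4231 against 0 CPM, and 70 of the 75 UMIs behind the value of 4231 came from 1 barcode. PECAM1 was near even, at 3669 against 3267 and 4852 against 3404 CPM. The CXCL12 values above 0 rest on 5 to 32 UMIs each, and 16 of the 32 UMIs behind the value of 697 came from 1 barcode.

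Between the zones, 0 of 450 genes tested within the 72 cells were called by edgeR (0.0%), with the meniscus as second term and 1 residual degree of freedom. At an unadjusted p below 0.05 there were 40, or 8.89% of the genes. DESeq2 called 5 (1.11%), COL1A1, APOA1, UBB and PLAU lower and CXCL10 higher in the white zone. The count depended on single libraries, with 43 calls without the lateral red, 29 without the medial red, 0 without the lateral white and 11 without the medial white library, each with the zone as the only term. In 1 simulated draw of this depth, with the same dispersion for all genes, the test recovered 0 of 47 genes with a 4-fold change. The lack of calls therefore does not show that such changes are absent.

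The largest zone differences are given as values without a call. APOA1 had 5098, 2738, 777 and 290 CPM, with both red zone libraries above both white zone ones (log2 white over red -2.98 ± 0.33, adjusted p = 0.348), and the other endothelial cells followed the same order at 1762, 1574, 596 and 105 CPM. PLAU, the urokinase activator of plasminogen, had 2008, 498, 53.6 and 118 CPM (log2 -3.40). CTSC, a lysosomal protease, had 669, 622, 53.6 and 139 CPM (-2.66), and STX11 360, 747, 53.6 and 107 CPM (-2.78). COL1A1 had 309, 11386, 53.6 and 965 CPM, where the medial red value sets the difference.

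Higher in the white zone were S100A4, with 1030, 124, 4126 and 5974 CPM (log2 3.20), COMP, a cartilage matrix protein, with 0, 311, 938 and 1781 (3.37), SPP1, osteopontin, with 51.5, 187, 2036 and 676 (3.35), and HPS5, with 0, 560, 5439 and 3153 (4.03). COMP was higher in the white zone in the other endothelial cells too, at 481, 350, 998 and 2593 CPM, as were the summed chondrocyte genes (571, 469, 2485 and 3225 CPM). The part of RNA from chondrocytes in this difference was not tested. HPS5 too was higher in the white zone in the other endothelial cells of matched total UMIs, at 206, 124, 5932 and 6465 CPM. CXCL10 had 0, 62.2, 2144 and 601 CPM (5.36), with 51.1% of its UMIs in 1 lateral white barcode.

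Between the menisci 0 of 450 genes were called by edgeR (0.0%), with 9 at an unadjusted p below 0.05 (2.0%), and DESeq2 called 1, COL1A1 (0.222%). Without the lateral red, medial red, lateral white and medial white library in turn, 3, 0, 12 and 0 were called. The largest values without a call were all of matrix genes higher in the medial meniscus, with COL1A1 at a log2 of 4.95, BGN at 3.28, COL3A1 at 2.92, COL1A2 at 2.82 and PCOLCE at 2.53. The fibroblast sums of the cells, 824 and 4555 CPM in the lateral against 28808 and 12624 in the medial libraries, moved with them, and their part was not tested. In the other direction PSMB8 lay at -1.25, APOA1 at -1.06, and RAN, SMARCA5 and PRDX1 between -1.03 and -1.11. APOA1 had a positive value without the lateral red library (0.90).

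Whether the zone difference of these cells departs from that of the other endothelial cells was tested as an interaction of class and zone. Of 2883 genes 2 were called by edgeR (0.0694%), PLAU and FN1, both relatively lower in the white zone cells, and 149 had an unadjusted p below 0.05 (5.17%). DESeq2 called 0. The count was 10, 5, 2 and 2 without the lateral red, medial red, lateral white and medial white library. In the other endothelial cells PLAU stood at 483, 203, 333 and 218 CPM, so the cells were above them in both red zone libraries and below them in both white zone libraries (interaction log2 -3.04 ± 0.58, adjusted p = 0.0220). FN1, fibronectin, had 154, 2862, 134 and 257 CPM in the cells against 207, 327, 376 and 444 (log2 -3.00 ± 0.62, adjusted p = 0.0363). Its difference rests on the medial red cells, and without that library the value was -0.30. FKBP5, a chaperone induced by glucocorticoids, had a UMI in 0 of 16 red zone and 18 of 56 white zone cells, without a call.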

How the data were processed

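Single-cell RNA was counted in 4 libraries of pig meniscus. The deposited files hold UMI counts per gene and filtered barcode, made with Cell Ranger 6.1.2 on Sscrofa11.1, per the submitters' processing notes. Other deposited values are barcode and gene names. Of 21280 features 14811 had a symbol in the files and 688 more were named through the reference's list of gene IDs.

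The rule was applied to the counts as deposited, without clustering. The cells, gene lists and tests were chosen with earlier results of these data known. UMIs were summed per library and class, and the 16 rule genes were left out. The tests were run in R 4.3.3 with edgeR 4.0.16 on TMM-scaled sums (glmQLFit and glmQLFTest), after the filterByExpr filter. An SE is the size of the log2 fold change over the square root of its F statistic. CPM values are of summed raw counts. DESeq2 1.42.0, scalings, filters, doublet removal (Scrublet in scanpy 1.11.5), depth matching and left-out libraries were alternatives. Shares have exact Clopper-Pearson 95% intervals.

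Genes were named when called, with a symbol, 20 CPM or more on average and 1 direction in every library, up to the 12 largest changes each way. Calls need an adjusted p below 0.05. Where under 6 passed, the 5 largest per direction are values without a call. Of each list up to 4 genes with the lowest p could be named. A fixed set of genes was to be given whatever the result, among them CXCR4, ANGPT2, APLNR, NRP1, NRP2, ACKR1, CD36 and DLL4. UNC5B and PGF were also in that set. The values of UNC5B are not given, and PGF has no feature by symbol in the data. FKBP5 was among the 5 largest per direction for the interaction, and the other interaction values without a call are not given. Other genes outside this rule (TOP2A, PDGFB and those of the white zone alone) were named after their values were seen. A gene that met the naming rule is not reported here.

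On simulated counts the test of the cells against the other endothelial cells recovered 42 of 87 genes with a 2-fold and 75 of 83 with a 4-fold change, with 5 false calls among 1974 genes tested. For the menisci it recovered 7 of 45 and 34 of 46 among 440 genes, and for the interaction 2 of 85 and 26 of 94 among 2602.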

Additional observations from a re-analysis of the deposited data

Results flagged for a closer look

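The zone difference of PLAU differed between the APLN and ESM1 cells and the other endothelial cells by the interaction term (log2 -3.04, edgeR's quasi-likelihood test, adjusted p = 0.0220), with the cells higher than the others in 2 of 2 red zone libraries and lower in 2 of 2 white zone libraries. Over its alternatives the adjusted p ranged from 5.32e-05 to 1.0. PLAU had 39, 8, 2 and 11 UMIs in the cells, and 21.7% of them came from 1 lateral red barcode.

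FN1 was the other gene whose zone difference differed between the 2 classes by that term (log2 -3.00, adjusted p = 0.0363, range over the alternatives 2.80e-10 to 1.0). It had 3, 46, 5 and 24 UMIs in the cells, and without the medial red library its value was -0.30. The medial red cells also had the highest fibroblast sum, 28808 CPM, and the part of fibroblast RNA was not tested.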

How the results depend on the processing

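Between the cells and the other endothelial cells, all of the alternatives kept the direction of those of the 19 named genes that had a value. The naming rule asked for a call and 1 direction in every library, so the kept direction was largely set by that choice. Most of the alternatives moved the calls. Against 25 main calls there were 47 by DESeq2, 53 with no filter on low counts (3 higher and 50 lower, where the median of all genes moved to -0.58), 12 with at least 2 APLN and ESM1 UMIs, 7 with depth-matched cells, 42 in the white zone alone and 1 to 34 with a library left out. Without TMM scaling the 23 calls were 14 higher and 9 lower, against 9 and 16. With no replicate block (library term left out) 0 were called. For the zone within the cells, with 0 main calls, there were 5 by DESeq2, 17 with no filter, 8 with at least 2 UMIs and 0 to 43 with a library left out, and COL1A1 ranged from -6.63 to 1.01 with a library left out, reversed without the medial red one. For the meniscus, with 0 main calls, there were 1 by DESeq2, 9 with no filter and 0 to 12 with a library left out, and APOA1 turned to 0.079 with at least 2 UMIs and ranged from -3.23 to 0.90 with a library left out, at 0.90 without the lateral red and 0.0057 without the medial white one. With no replicate block the zone and the meniscus also gave 0. For the interaction, with 2 main calls, there were 0 by DESeq2, 6 with no filter, 0 with at least 2 UMIs and 2 to 10 with a library left out. The cause of these shifts was not tested. The shares with at least 2 UMIs were 0.245, 0.226, 8.11 and 6.098%, and the thinned medial white share was 8.21%. Thinned, APLN was in 2.24% of medial white endothelial barcodes and in 0.194 and 0.216% of the lateral red and medial white comparison class. The test of cells with APLN alone against cells with ESM1 alone was not run, since 1 library had 10 of each. Depth limits the red zone, where 19419 and 16072 UMIs lie behind all values.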
